A study of Rattus norvegicus with 18 samples.

Results

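Kidneys of diabetic model animals that had received TSK were compared with kidneys of control animals, across all expressed genes. The comparison uses 12 of the 18 libraries of the study, the 6 titled Treat and the 6 titled Ctrl, and the 6 libraries of the untreated model (DN) entered the same fit. Control animals (Ctrl) were kept on ordinary feed with solvent by gavage. Untreated model animals (DN) were given a high-fat diet and an injection of STZ. The treated animals (Treat) had the same diet and injection and then took TSK orally, 500 mg/kg each day for 4 weeks. TSK is known here by its abbreviation alone, and neither labels nor series text name the strain, sex or age of the animals. The question is what still sets the treated kidney apart from the control kidney, and how far that depends on which control libraries serve as the reference.

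STZ (streptozotocin) is a toxin that is taken up by the insulin-producing beta cells of the pancreas and kills them. Combined with a high-fat diet it leaves rodents with raised blood glucose and impaired insulin action. In diabetic nephropathy the kidney filters and reabsorbs an excess of glucose, and glomeruli, tubules and interstitium change over time.

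The labels call the animals rats, but all 55335 identifiers of the count table are mouse Ensembl genes, and the builds in the submitters' processing notes are mouse builds. No gene names could be attached: the gene table at hand is for rat and matched 0 of these identifiers. Genes are therefore described by level, direction and number, and 2 identifiers in each direction are printed. For the same reason the kidney label could not be checked against marker genes, and the 40 gene lists written for this tissue by symbol could not be used. In whole tissue, fewer cells of a type and less RNA per cell cannot be told apart.

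Library totals were 26312358 to 34140706 counts in Ctrl and 22040987 to 28135824 in Treat. Control library 4 and treated library 1 stood apart from their groups: on the second principal component of the 12 libraries (13.2% of the variance of log2 CPM, counts per library total scaled by TMM, edgeR's trimmed-mean factors), they lay at -54.0 and -77.7, and the other 10 libraries lay between -18.0 and 31.1. Control library 4 correlated with the other controls at 0.956 to 0.965 across genes, below the 0.966 to 0.983 among those 5. Results that rest on these libraries are given with and without them. Nothing in the sources says how the animals were housed or in which order they were processed.

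Close to every second gene was called as different between treated and control kidney. For 5 of the 6 controls, this difference cannot be told apart from what sets them off from control library 4, as described below. Of 19233 genes tested, 8629 (44.9%) were called, 4415 higher (23.0%) and 4214 lower (21.9%) in Treat (edgeR quasi-likelihood test, Benjamini-Hochberg adjusted p under 0.05). Most of the changes were small. Of the called genes, 3806 (44.1%) changed by less than 1.5-fold, 2382 (27.6%) by 1.5 to 2-fold, 1739 (20.2%) by 2 to 4-fold and 702 (8.14%) by 4-fold or more. In the last class 447 genes were higher and 255 lower in Treat. The treated and control libraries did not overlap for 4749 genes (24.7%), with 2209 of them higher (11.5%) and 2540 lower (13.2%) in Treat.

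Without control library 4 the number of genes called was 8647, without treated library 1 it was 8771, and without both it was 8730. Leaving out control library 4 keeps only the 5 controls it stood apart from, so the first number is no check on that division. How the calls divided by direction moved with the scaling. When libraries were scaled by their totals alone, 64.5% of the calls were higher in Treat, against 51.2%, and the median of all genes moved by 0.10 on the log2 scale.

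Direction went with expression level. Among 3361 genes under 1 CPM of mean level, 558 were called higher and 264 lower in Treat. Among 6066 genes from 1 to 10 CPM, 1582 were higher and 940 lower. The order turned in the abundant genes. Of 8227 genes from 10 to 100 CPM, 1971 were higher and 2373 lower, and of 1579 genes at 100 CPM or more, 304 were higher and 637 lower. The most abundant transcripts of the kidney were thus called lower more often than higher. The median difference was -0.14 (log2) over all 1579 genes of that band, against 0.02 over all genes tested. These bands were counted with TMM scaling only. Scaling by library totals raised the median of all genes by 0.10 (log2), and the bands were not recounted with it. The order turned a band earlier against control library 4 alone. There 77 genes were higher and 61 lower under 1 CPM, 276 and 312 from 1 to 10 CPM, 321 and 590 from 10 to 100 CPM, and 76 and 149 at 100 CPM or more.

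**Figure D1:**
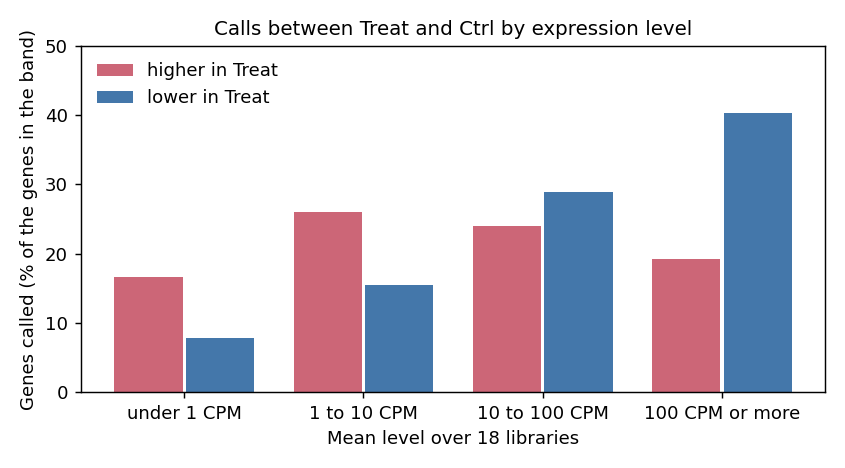
Genes called between Treat and Ctrl as a percentage of the genes in each band of mean level over the 18 libraries, higher in Treat (red) and lower in Treat (blue). All calls shown use TMM scaling. Calls in the higher direction outnumber the others in the lower 2 bands (558 against 264, 1582 against 940), and the order is the opposite in the upper 2 bands (1971 against 2373, 304 against 637).

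The 2 genes with the largest rises were almost without counts in the control kidney. They and the 2 falls below were the first in each direction among called genes with at least 5 CPM in the higher group, no overlap between the treated and control libraries, and the same direction against control library 4 alone. That rule was met by 1623 genes that were higher and 2222 that were lower.

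ENSMUSG00000116207 had 0 counts in each of the 6 controls, library 4 included. In treated libraries 1 to 6 its level was 23.0, 73.0, 73.5, 55.9, 70.7 and 80.9 CPM. All treated libraries lay far above the controls, and treated library 1 was the lowest of them. The mean of 62.8 ± 21.2 CPM (SD, n = 6) is at least 3676-fold higher than the control level that a floor of 3 counts over the 6 controls allows (edgeR, adjusted p = 5.63e-08). Against control library 4 alone it was at least 574-fold higher, with the floor of 3 counts in that library (edgeR, adjusted p = 0.000995). The DN libraries stood at 69.3 ± 25.9 CPM (n = 6), and Treat did not differ from DN by more than the spread between libraries (log2 fold change -0.14, SE 0.33; edgeR, adjusted p = 0.876).

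ENSMUSG00000076614 had 2 counts in control library 6 and 0 in the other 5 controls. In treated libraries 1 to 6 it stood at 55.0, 16.0, 13.9, 138.2, 41.0 and 93.1 CPM, a wide range in which no treated library came near the controls. The ratio of pooled counts was 5282, with a 95% exact Poisson interval of 1462 to 43624 that covers counting error only (edgeR, adjusted p = 4.57e-05). Control library 4 alone had 0 counts, so that the treated mean of 59.5 ± 48.3 CPM (SD, n = 6) was at least 544-fold higher. With this single reference the gene was not called (edgeR, adjusted p = 0.0866, log2 fold change 13.73, SE 4.98). In DN libraries 1 to 6 it stood at 10.8, 5.21, 9.39, 204.5, 7.01 and 3.86 CPM. All DN libraries except library 4 thus lay below every treated library. The difference between Treat and DN was not called (log2 fold change 0.56, SE 0.83; edgeR, adjusted p = 0.787).

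Of the 2 largest falls, the first rests mostly on 1 control. ENSMUSG00000029368 stood at 22.6, 16.2, 17.5, 70.4, 5999.8 and 22.9 CPM in control libraries 1 to 6. In treated libraries 1 to 6 it stood at 2.08, 12.8, 9.22, 12.1, 9.42 and 11.9 CPM. The groups did not overlap, but control library 5 was far above all others. The log2 fold change was -6.74 (SE 1.48; edgeR, adjusted p = 0.00134) and fell in size to -1.64 without control library 5 (edgeR, adjusted p = 0.00322). Against control library 4 alone it was -2.88 (SE 1.75) and was not called (edgeR, adjusted p = 0.301). It was called with the same log2 fold change once control library 5 was left out (edgeR, adjusted p = 0.000833). The DN libraries stood at 10.8 ± 1.96 CPM (SD, n = 6) and were not distinguishable from Treat (log2 fold change -0.17, SE 1.20; edgeR, adjusted p = 0.961).

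ENSMUSG00000021214 was low in all treated libraries, with 0.424, 0.617, 0.973, 0.535, 1.09 and 0.345 CPM in libraries 1 to 6. The controls held 41.5, 152.7, 49.6, 10.9, 22.7 and 136.5 CPM, and control library 4 was the lowest of them. The log2 fold change was -6.69 (SE 0.62; edgeR, adjusted p = 2.81e-07) against all controls and -4.03 (SE 0.65; edgeR, adjusted p = 0.00113) against control library 4 alone. The DN libraries lay between the groups without overlap with either, at 2.26 to 4.41 CPM. The further fall from DN to Treat, -2.03 on the log2 scale (SE 0.61), was not called (edgeR, adjusted p = 0.101). It was called in 3 of 21 alternatives: with DESeq2 (log2 fold change -2.04, adjusted p = 0.00853), without control library 4 (-2.03; edgeR, adjusted p = 0.0427) and without control libraries 4 and 5 (-2.03; edgeR, adjusted p = 0.0176). Controls enter the edgeR test of Treat against DN only through the shared filter, scaling and estimate of the spread.

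**Figure D2:**
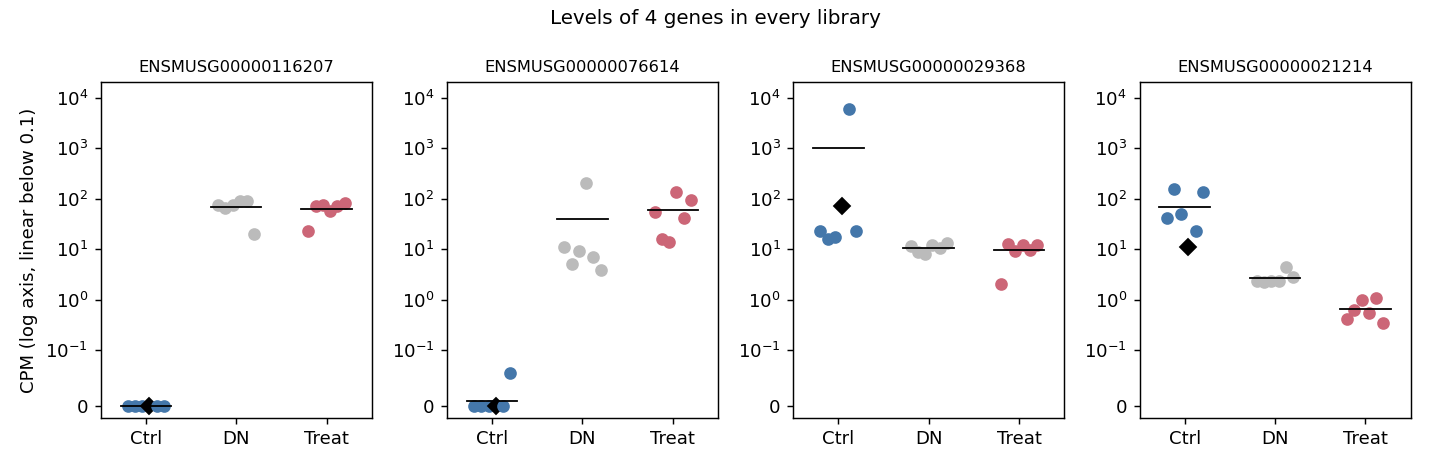
Levels of the 4 genes in every library in CPM (log axis, linear below 0.1), with 1 point per library in order of replicate number, a line at the group mean and control library 4 as a black diamond. The treated libraries lie at 23.0 CPM or more for ENSMUSG00000116207 with all controls at 0, and for ENSMUSG00000029368 the control mean is set by 1 library at 5999.8 CPM.

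Complete switches between the groups ran almost all one way. An all-or-none difference was taken as at least 10 times between the lowest library of the high side and the highest library of the low side, with at least 1 CPM throughout the high side. The 6 treated libraries were all-or-none higher than the 6 controls for 29 genes and lower for 1 gene, which was ENSMUSG00000021214. Summed over the 29 genes, the controls held 3.78 to 24.5 CPM, with 6.45 CPM in control library 4. The treated libraries held 1074 to 2895 CPM and the DN libraries 468 to 1747 CPM. The treated and DN libraries thus overlapped on this sum, and for 28 of the 29 genes every DN library was above every control. No gene was all-or-none in the treated libraries against the controls and the DN libraries together. Since these genes were chosen by their values, the sums are a description.

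Control library 4 sided with the treated kidneys for a further 8 genes. For 6 of them the treated libraries and control library 4 were all-or-none above the other 5 controls. Their summed level was 239 to 274 CPM in Treat and 314 CPM in control library 4, against 0.141 to 0.288 CPM in the other controls. For 2 genes the order was the opposite, with 1412 to 1700 CPM summed in the other 5 controls, 1.17 CPM in control library 4 and 0.883 to 1.23 CPM in Treat. The DN libraries were on the treated side on both sums, at 255 to 305 and 0.787 to 1.45 CPM. The same search with another control in the place of library 4 found 1 gene for control library 1 and none for libraries 2, 3, 5 and 6. These 8 genes were chosen by their values, and the choice fixes how they compare with each set of controls, so they are a description and no test is given. For these 5 controls, the difference from the treated kidneys cannot be told apart from what sets them off from control library 4. The sex of the animals is not in the labels, and without gene names sex-linked transcripts could not be looked up. Whether these 5 controls differ in sex from control library 4 and from all model and treated animals was therefore not tested. Such a difference would enter every comparison of Treat with a reference that includes any of these 5 controls. It would not enter the difference of Treat from control library 4 alone.

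Against control library 4 alone, 1862 genes (9.68%) were called, 750 higher (3.90%) and 1112 lower (5.78%) in Treat. The lone library was assumed to vary like the other groups, and the spread came from the other 17 libraries. The genes called at an unadjusted p under 0.05 numbered 5258, and 1148 of the adjusted calls were changes of at least 2-fold (513 higher, 635 lower). Without treated library 1 the calls against control library 4 numbered 2940. Against the other 5 controls, 8590 genes (44.7%) were called, 4480 higher (23.3%) and 4110 lower (21.4%). The median standard error of a log2 fold change was 0.295 against control library 4 and 0.166 against the other 5. The sizes of the differences against these 2 references cannot be compared directly, since the larger error of a single library also widens the spread of the estimates.

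The other controls, used as the only reference in turn, gave numbers in the same range. They were 2298, 1834, 2030, 1988 and 1963 genes for control libraries 1, 2, 3, 5 and 6, against 1862 for control library 4, which was next to the lowest of the 6. The median size of the log2 fold change over all genes was 0.397 against control library 4, the smallest of the 6, and 0.407 to 0.416 against the others. The median standard error was 0.295 for library 4 and 0.303 to 0.305 for the others. Without treated library 1 the order changed: 2940 genes were called against control library 4 and 2386 to 2823 against the other single controls. These 6 tests share the treated libraries. Their spread is not estimated from the same controls, since library 4 is among the remaining controls in every test but its own.

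**Figure D3:**
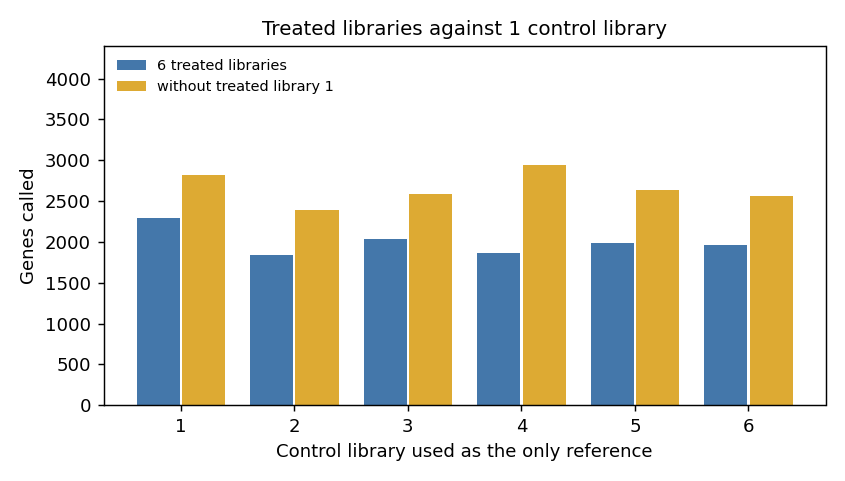
Number of genes called when the treated libraries are compared with 1 control library at a time, with all 6 treated libraries (blue) and without treated library 1 (yellow). Library 4 gives 1862 calls among 1834 to 2298, and 2940 among 2386 to 2940 without treated library 1.

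Each library was also placed between the groups by genes that it had no part in choosing. Each of the 12 libraries was left out in turn, genes were called between Treat and Ctrl from the rest, and the left-out library was placed on the line from the mean of the controls (0) to the mean of the treated libraries (1) over those 7860 to 8715 genes. Control library 4 was at 0.233 and control library 1 at 0.150, while control libraries 2, 3, 5 and 6 were at -0.028 to 0.033. Treated library 1 was at 0.746, and treated libraries 2 to 6 were at 0.895 to 1.02. On these positions control library 4 was closer to the treated libraries than any other control was, but well on the control side. Control library 4 was displaced alike for genes higher in Treat (0.248) and lower in Treat (0.203). The positions do not share 1 set of genes, and library 4 is among the controls for every other control's position. Correlations with the treated libraries overlapped, at 0.911 to 0.938 for control library 4 and 0.914 to 0.934 for the other controls. No test was made of these positions.

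**Figure D4:**
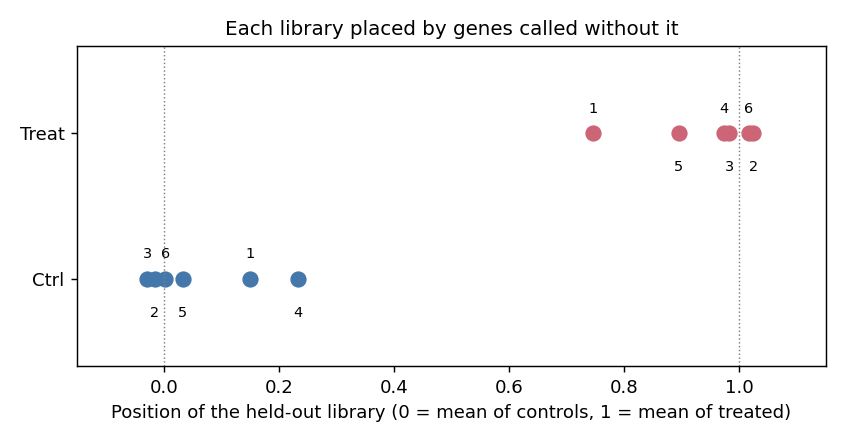
Position of each left-out library, marked by its replicate number, between the mean of the remaining controls (0) and the mean of the remaining treated libraries (1), over the genes called without it. Control library 4 (0.233) and treated library 1 (0.746) lie farthest inward in their groups.

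The only gene groups that could be matched to the identifiers were marker genes of the cell cycle, since the marker pairs installed with the scran package use mouse Ensembl identifiers. Cells pass from growth (G1) through DNA synthesis (S) to the phase that ends in division (G2M). Tubule cells of the adult kidney rarely divide, and they enter the cycle after injury. The pairs were trained on stem cells of the mouse embryo, and whether they track the cycle in kidney was not tested. They are described by their counts, beside the percentages over all genes.

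The G2M list held the clearest difference between the references. Of its 99 measured genes, 18 were called higher and 14 lower against all 6 controls (32.3%, against 44.9% of all genes), with a median log2 fold change of -0.06. Against control library 4 alone, 1 was higher and 26 lower (27.3%, against 9.68% of all genes), with a median of -0.38. Against the other 5 controls, 26 were higher and 13 lower (39.4%, against 44.7% of all genes), with a median of 0.16. With scaling by library totals the counts became 20 and 8 against all controls, 2 and 24 against control library 4 alone, and 30 and 7 against the other 5. When control library 1, 2, 3, 5 or 6 was the only reference, 3 to 5 genes of the list were lower and 2 to 5 higher. Averaged over the list, log2 CPM was 3.38 in control library 4 and 2.41 to 2.62 in the remaining controls. It was 2.49 to 2.79 in the treated libraries and 2.67 to 2.85 in DN. On this mean, which weights all genes of the list alike, control library 4 was above every other library, and the treated libraries overlapped with the other controls. On summed CPM, to which abundant genes contribute most, control library 4 (2448) was above the other controls (2161 to 2278) and the treated libraries (2069 to 2309), but DN reached 2488. The direction of this list in the treated kidney therefore differed with the control taken as the reference.

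The S and G1 lists differed less between references. The S list had 104 measured genes. Against all controls 22 of them were called higher and 22 lower (42.3%, near the 44.9% of all genes), and against control library 4 alone 4 and 11 (14.4%, against 9.68% of all genes). With scaling by library totals the first pair of counts became 30 and 15. The S list averaged a log2 CPM of 4.24 in control library 4, 3.81 to 3.92 in the remaining controls and 3.83 to 4.02 in the treated libraries. On summed CPM the order differed, and control library 4 was the lowest of the controls (5430, against 5541 to 6033). The G1 list had 138 measured genes. Against all controls 23 of them were called higher and 52 lower (54.3%, against 44.9% of all genes), and against control library 4 alone 5 and 18 (16.7%, against 9.68%). On summed CPM control library 4 was the lowest of the controls for the G1 list too (10198, against 10889 to 11422). With scaling by library totals the first pair of counts became 37 and 41. The median log2 fold change of the G1 list was -0.10 against all controls, -0.22 against control library 4 alone and -0.07 against the other 5, all below the median of all genes (0.02, 0.01 and 0.04). Between Treat and DN, the G1 list had 2 genes called higher and 1 lower, the S list had none, and the G2M list had 2 called lower, with 1.39% of all genes called (0.536% higher, 0.858% lower).

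**Figure D5:**
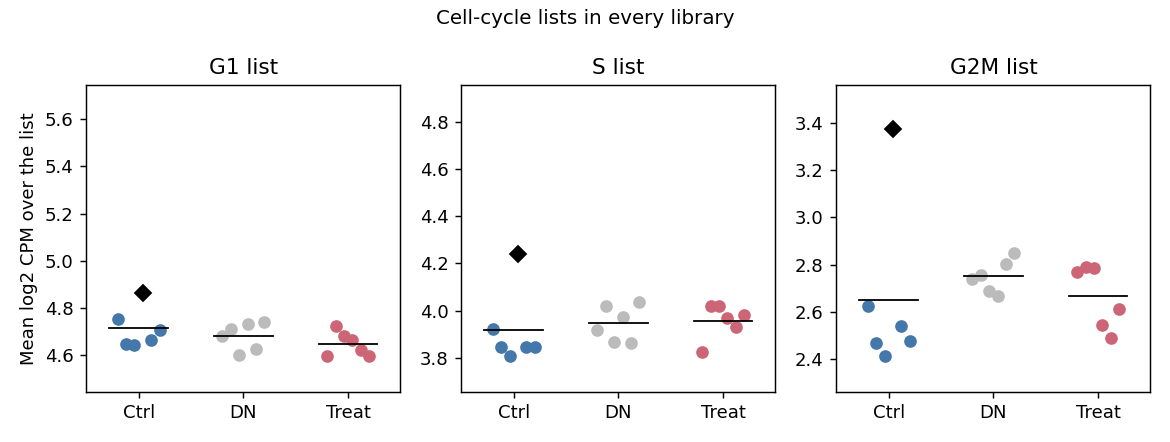
Mean log2 CPM over the measured genes of the G1, S and G2M lists in every library, with a line at the group mean and control library 4 as a black diamond; the 3 panels span the same number of log2 units from different starting points. On this mean control library 4 lies above all other libraries in the 3 lists, at 3.38 for G2M, where the other controls reach 2.62 and the treated libraries 2.79; on summed CPM it is the lowest control for G1 and S.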

How the data were processed

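Kidney polyA RNA was sequenced in 18 libraries. The authors deposited raw counts per gene, 1 column per library, with no normalization. Genome builds were GRCm38 and mm10, per the submitters' processing notes; aligner, counter, annotation release and strandedness: not given in the sources used here. Genes with near-identical copies or antisense partners are therefore uncertain. The series describes 6 animals a group.

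The tests ran in edgeR 4.0.16 (R 4.3.3), with filterByExpr, TMM factors, 1 coefficient per group over 18 libraries, quasi-likelihood tests, and Benjamini-Hochberg adjustment over 19233 genes. Control library 4 had its own coefficient in a second fit. CPM use TMM-scaled totals, log2 CPM a prior count of 2. The common biological coefficient of variation was 0.273, so spread between animals exceeds counting noise except at low counts. Alternatives used DESeq2 1.42.0 and limma 3.58.1 (voom), among others. Fits were tested on simulated data in which few genes changed and no library stood apart from its group. That test does not cover the broad change and the division of the controls seen here. Cell-cycle lists came from scran 1.30.0 marker pairs: a gene's net share of first places had to reach 0.8 in its phase and -0.5 or lower in another, over 10 or more pairs. Named genes were to carry symbols and follow further parts of the rule by gene list; without names only its first part was used. Members, lists and rules were chosen with earlier results of these data known.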

Additional observations from a re-analysis of the deposited data

Results flagged for a closer look

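In groups of 6 libraries, a library was singled out when its gap to the nearest other library was, as a share of the group's range, above Dixon's 95% critical value. Chance singles out about 1 group in 20, and 18 groups were checked. Treated library 1 was low for ENSMUSG00000116207, at a log2 CPM of 4.53, and for ENSMUSG00000029368, at 1.11. Control library 5 was high for ENSMUSG00000029368, at a log2 CPM of 12.55. That gene was chosen by a fitted change that rests mostly on this library, so the chance rate does not hold for it. Control library 6 was the only control with counts of ENSMUSG00000076614 (2 counts), at a log2 CPM of -2.94. The other controls were tied at 0 counts, so any count would have singled it out, and the chance rate does not apply there. Control library 4 was high for the mean log2 CPM of the S list, at 4.24, and of the G2M list, at 3.38. On summed CPM control library 4 was the lowest control for the S list (5430) and the highest for the G2M list (2448).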

How the results depend on the processing

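Against all controls, the number of called genes stayed within 1.5 times in 22 of 23 alternatives (7901 to 10098 genes); the exception was the requirement of at least 2-fold, which left 2441 genes (1361 higher, 1080 lower). The same requirement left 2606 genes against the other 5 controls (1516 and 1090) and 1148 against control library 4 alone (513 and 635). Against control library 4 alone the count was 1153 without a filter on low counts (450 higher, 703 lower), 3082 with limma voom (1004 and 2078), 2630 with DESeq2 (1317 and 1313) and 2560 with only the 12 libraries (1214 and 1346). With single libraries left out it ranged from 1511 to 2940, with 613 to 1147 higher and 895 to 1793 lower. The causes were not tested. With library totals 67.2% of the calls against the other 5 controls were higher, against 52.2%.

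Replicate numbers do not pair the animals in any label, and the deviations of same-numbered treated and control libraries correlated at -0.187 to 0.042, with 0 of 6 controls closest to its own number. With the replicate block, 8202 genes were called against all controls, 8226 against the other 5 and 751 against control library 4 alone (326 higher, 425 lower).

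For the named genes, the log2 change from DN to Treat was near 0 and turned sign for ENSMUSG00000116207 with voom (0.031), without treated library 1 (0.031) and without that library and control library 4 (0.048). With single libraries left out it ranged from -0.227 to 0.031. For ENSMUSG00000029368 it turned sign without treated library 1 (0.038) and without that library and control library 4 (0.055), and ranged from -0.271 to 0.038 with single libraries left out. ENSMUSG00000029368 lost its call against all controls in 2 of 21 alternatives, with the replicate block (log2 fold change -2.60, edgeR, adjusted p = 0.0738) and with voom (-2.48, adjusted p = 0.147). Its adjusted p ranged from 0.000906 to 0.147. No DESeq2 result was recorded for this gene, so that alternative is not among the 21. The other 3 named genes kept their calls in 22 of 22. Against control library 4 alone, ENSMUSG00000116207 and ENSMUSG00000021214 lost theirs with voom (adjusted p = 0.0689 and 0.0801), ENSMUSG00000029368 gained one without control library 5 (adjusted p = 0.000833), and ENSMUSG00000076614 gained one with the replicate block, DESeq2 or the 12 libraries (adjusted p = 0.00725, 0.000198 and 0.00975). With control library 5 in place of library 4, ENSMUSG00000029368 was called at a log2 fold change of -9.29 (edgeR, adjusted p = 2.14e-08). The 26 lower genes of the G2M list against control library 4 were 24 with library totals and 16 with the replicate block. Over all alternatives, 354 counts of list members stayed within 1.5 times and 36 did not. The single-control references other than library 4, and the alternatives for the other 5 controls, were chosen after seeing the data.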

Other observations

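Of the 29 genes that were all-or-none higher in the treated kidneys than in the controls, 11 have identifier numbers inside a single run of 18 consecutive numbers. The table holds 15 identifiers in that run, and 14 of them had enough counts to be tested. No names or positions were available for them. Counts were found in all 6 treated libraries and in no control for 21 genes, and 15 of these had counts in all 6 DN libraries as well. In the opposite direction, 1 gene had counts in all controls and none in the treated libraries.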
